A study of Mus musculus with 20 samples.

Results

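Glycolytic enzymes and genes of the hypoxia response were followed in lenses of mice labelled as knockouts of the transcription factors E2F1, E2F2 and E2F3, and in control lenses, before and at birth. The set was a list of 32 genes, of which 28 had a probe set annotated to that gene alone and 26 passed the filter on dim probe sets and were tested, among 11859 genes tested of 18193 with such a probe set. Eno2 (an enolase) and Adm (adrenomedullin) did not pass that filter, and their levels are given without a test. Gpi1 and Eno1 were not analysed here, because the annotation table used names no probe set for them. The ordinary probe sets of Gapdh and Bnip3l were shared with other gene copies, so neither was tested.

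Each of the 20 arrays held the RNA of both lenses of 1 mouse, and each of the 4 groups held 5 arrays. Where lenses are counted or a lens is named below, 1 such array is meant. Controls were E2F2-/- mice, so that both genotypes lacked E2F2. The knockout mice were E2F1-/- and E2F2-/- with floxed E2F3 alleles (E2F3f/f) and a Cre transgene named Cry-Cre in the labels, which do not state the cells in which it is active. By these labels E2F1 and E2F2 were missing in every cell of the knockout mice, whereas E2F3 could be lost only where Cre acted. Lenses were taken at the embryonic stage E17.5 and on the day of birth (P0), and the series asked which events lead to the collapse of the newborn knockout lens. No litter is named, so p-values measure the spread between mice, which may also hold a spread between litters.

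Glycolysis splits glucose in a series of cytosolic steps into pyruvate, which lactate dehydrogenase turns into lactate when mitochondria do not burn it. The lens has no blood vessels of its own and little oxygen in its core, its fibre cells lose their mitochondria as they mature, and glycolysis supplies much of its energy. When oxygen is low, the hypoxia-inducible factor HIF escapes hydroxylation by the Egln enzymes and degradation through Vhl, and raises transcription of glucose transporters, glycolytic enzymes and genes such as Vegfa, Bnip3 and P4ha1. E2F factors are best known as regulators of cell cycle genes.

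The labels give the cell type as epithelial cells, yet both fibre and epithelial genes were read. The fibre membrane protein Mip had a mean log2 value of 13.51 in control lenses at P0 and 13.55 in knockout lenses, whereas the epithelial factor Foxe3 had 8.34 and 7.56. The probe sets of the 3 E2F genes did not check the genotype: E2f3 read 8.01 in control and 7.95 in knockout lenses at P0, and E2f1 read higher in the knockout (7.79 against 7.34). How these probe sets lie relative to the deleted segments is not stated in the labels or files. Knockout arrays at E17.5 stood apart from each other. Replicates 24 and 27 had a mean correlation over the genes of 0.985 and 0.990 with the control arrays of their stage but 0.969 and 0.972 with their own group, and the median gene had an SD of 0.204 in that group against 0.0963 in the controls. Markers of retina moved with genotype: at P0, 10 of 12 tested retina genes were higher in knockout lenses and none lower, with a median of their changes of 1.61 log2 units. The mean log2 level of the 12 lay between 5.70 and 6.69 in control lenses at E17.5, 5.82 and 7.87 in knockouts at E17.5, 4.70 and 6.34 in controls at P0 and 6.63 and 7.66 in knockouts at P0. Of 9 pigment cell genes 6 were higher and of 9 macrophage genes 4 were higher, whereas of 14 endothelium and pericyte genes 1 was lower, of 13 lens genes 2 were lower, of 4 red blood cell genes 1 was higher and of 3 skeletal muscle genes none passed. Over all genes tested, 20.2% were called higher and 19.4% lower at P0. The counts of the endothelium, lens, red blood cell and muscle lists lay near or below these shares. Retina genes are read in the control arrays too (Otx2 at 5.84 and 7.86 in control and knockout lenses at P0), so a share of RNA from neighbouring tissue cannot be told apart from expression in the lens. In such whole-tissue samples, fewer cells of a type and less RNA per cell cannot be told apart either.

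**Figure D1:**
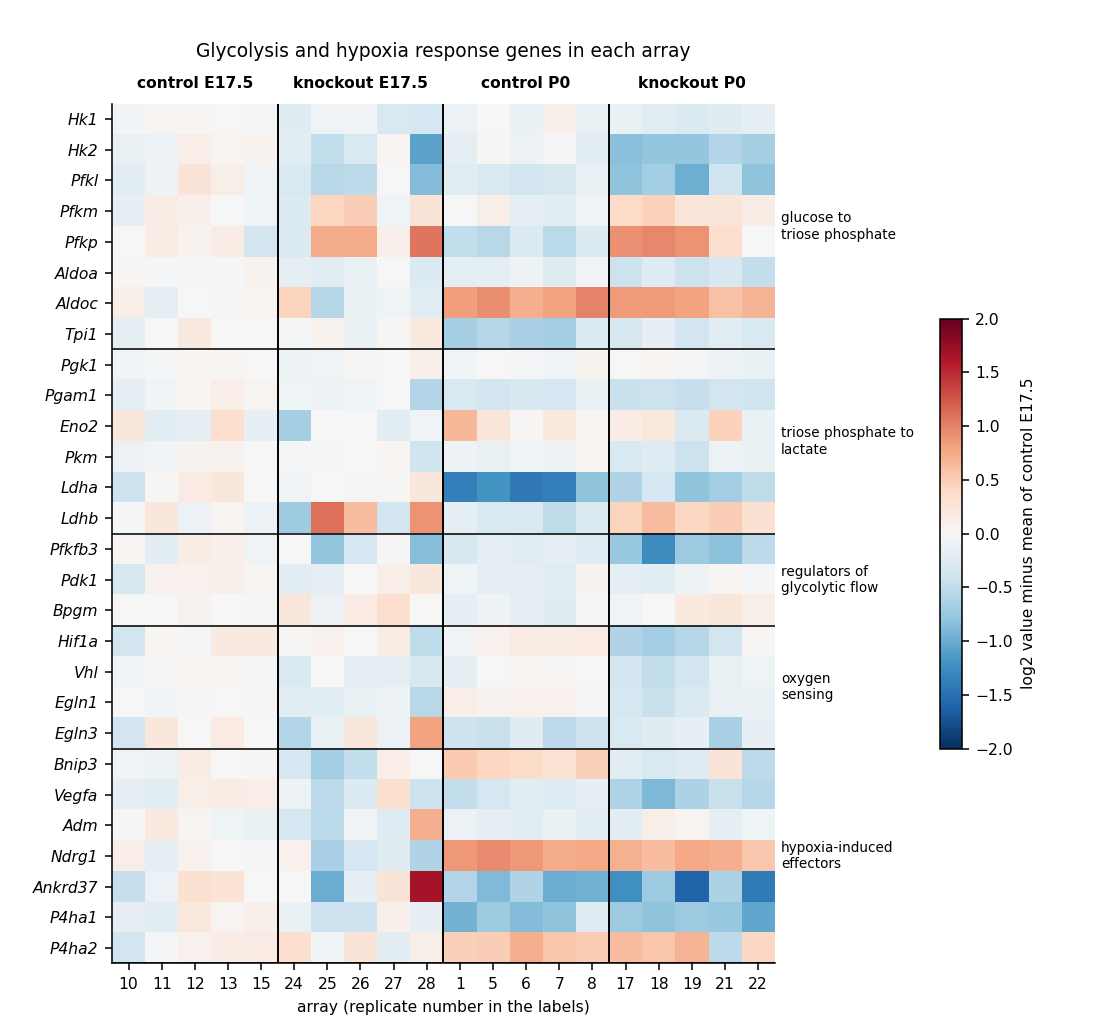
Log2 value of each of 28 genes (rows, grouped by role) in each of 20 arrays (columns, 5 per group), as the difference from the mean of the 5 control arrays at E17.5; red is higher and blue lower. Ldha is lower and Aldoc and Ndrg1 are higher in every array at P0 of either genotype, and knockout replicate 28 at E17.5 holds the highest value of Ankrd37 (7.86) and the lowest of Hk2 (8.96).

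In control lenses, the main shift from E17.5 to P0 was a fall of lactate dehydrogenase Ldha, of triose phosphate isomerase Tpi1 beside a rise of the aldolase Aldoc, while the 6 tested hypoxia-induced effectors split: Ndrg1, Bnip3 and P4ha2 rose and P4ha1, Ankrd37 and Vegfa fell. The Benjamini-Hochberg adjusted p of limma was under 0.05 for 17 of the 26 tested genes, 4 higher and 13 lower at P0. Over all tested genes 12.5% were called higher and 24.9% lower in this comparison, and the values of 10 of the 26 genes did not overlap between the stages, against 24.9% of all genes tested. The median change was -0.14 for the 26 genes and -0.04 for all genes tested. Markers moved with stage as well: 5 of 12 retina genes, 3 of 9 macrophage genes and 2 of 4 red blood cell genes were lower at P0, and 7 of 13 lens genes were higher. With the average retina marker level in the fit, Aldoa (-0.16, adjusted p = 0.0614), Bpgm (-0.16, 0.0708) and Egln3 (-0.35, 0.0539) no longer passed, at changes close to the -0.16, -0.15 and -0.41 without it, and the part of the other lists was not tested. In a fit over all 20 arrays, which takes the spread from all groups, 4 of the 13 lower genes passed: Ldha, Tpi1, Pgam1 and P4ha1.

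Among the enzymes that turn glucose into triose phosphates, 1 rose, 4 fell and 3 did not pass. Aldoc, the aldolase isoform known from brain, read 10.91, 10.60, 10.80, 10.82 and 10.85 in the 5 control lenses at E17.5 and 11.64, 11.73, 11.53, 11.60 and 11.79 at P0. Every P0 value lay above every E17.5 value, and the change was 0.86 ± 0.07 log2 units (SE, n = 5 and 5, limma adjusted p = 3.92e-05), a 1.81-fold rise. The other aldolase measured, Aldoa, read 11.39, 11.34, 11.34, 11.33 and 11.44 at E17.5 and 11.19, 11.17, 11.26, 11.12 and 11.31 at P0, also apart, and fell by 0.16 ± 0.05 (adjusted p = 0.021). The Aldoc minus Aldoa difference was 1.01 log2 units higher at P0, without overlap between stages. Tpi1, which interconverts the triose phosphates, read 11.01, 11.21, 11.38, 11.20 and 11.21 at E17.5 and 10.53, 10.63, 10.55, 10.50 and 10.93 at P0, without overlap, a fall of 1.49-fold (adjusted p = 8e-04). Its other 2 probe sets changed by -0.59 and -0.64, close to the -0.57 of the probe set used. The liver-type and platelet-type phosphofructokinases Pfkl and Pfkp fell by 0.27 ± 0.08 and 0.43 ± 0.10 (adjusted p = 0.0283 and 0.00742). Pfkl read 10.24, 10.34, 10.71, 10.56 and 10.39 at E17.5 and 10.23, 10.15, 10.08, 10.13 and 10.30 at P0. Pfkp read 5.84, 5.98, 5.90, 5.98 and 5.47 at E17.5 and 5.35, 5.27, 5.56, 5.30 and 5.55 at P0. In both genes the stages overlapped, and the lowest E17.5 lens of Pfkp (replicate 15) lay within its P0 range. The Pfkl call was lost without control replicate 12 or 13 at E17.5 or 5, 6 or 7 at P0 (adjusted p 0.0518 to 0.0678) and the Aldoa call without replicate 15 at E17.5 or 7 at P0 (0.053 and 0.0537), and both under quantile normalization (0.0549 and 0.0891). The mean of the Pfkp probe sets did not pass (-0.19, adjusted p = 0.106). The hexokinases Hk1 and Hk2 and the muscle-type phosphofructokinase Pfkm changed by -0.05, -0.11 and -0.08 and did not pass.

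Of the steps from triose phosphate to lactate, 3 fell and 2 did not pass. Ldha, which makes lactate from pyruvate, had the largest change of the 26 genes in this comparison. It read 11.37, 11.81, 11.95, 12.01 and 11.77 at E17.5 and 10.41, 10.59, 10.36, 10.42 and 10.97 at P0. The groups did not overlap although replicate 8 at P0 stood above the other 4, and the change was -1.23 ± 0.14 (adjusted p = 0.000146), a 2.35-fold fall. Replicate 8 was also the highest of its group for Tpi1 (10.93) and P4ha1 (10.08). Ldhb, the isoform known from oxidative tissues, read 7.83, 8.10, 7.76, 7.93 and 7.77 at E17.5 and 7.68, 7.58, 7.57, 7.36 and 7.59 at P0, without overlap, and fell by 0.32 ± 0.08 (adjusted p = 0.00846), so that Ldhb minus Ldha was 0.91 higher at P0 without overlap. Pgam1 (phosphoglycerate mutase) read 11.41, 11.54, 11.63, 11.72 and 11.64 at E17.5 and 11.29, 11.22, 11.26, 11.25 and 11.45 at P0, a fall of 0.29 ± 0.06 (adjusted p = 0.00511), with replicate 8 at P0 just above the lowest E17.5 lens. Pgk1 (phosphoglycerate kinase) lay between 13.04 and 13.14 at E17.5 and between 13.02 and 13.17 at P0, and Pkm (pyruvate kinase) changed by -0.07; neither passed. Control probe sets of Gapdh on the array, read at its 3' end, had means of 13.51 and 13.52 at the 2 stages. Eno2 was dim, at 4.61 to 5.16 and 4.84 to 5.48.

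Of the regulators of glycolytic flow, Pfkfb3, which makes the allosteric activator of phosphofructokinase, read 7.58, 7.33, 7.70, 7.65 and 7.47 at E17.5 and 7.23, 7.36, 7.31, 7.37 and 7.29 at P0. It fell by 0.23 ± 0.07 with overlap (adjusted p = 0.0199), and its other probe set changed by 0.11. The mean of both (-0.06, adjusted p = 0.416) and the fit without control replicate 13 at E17.5 (0.0502) did not pass. Bpgm, which makes the bisphosphoglycerate that lowers the oxygen affinity of haemoglobin, read 8.81, 8.80, 8.89, 8.81 and 8.78 at E17.5 and 8.63, 8.72, 8.64, 8.57 and 8.80 at P0, a fall of 0.15 ± 0.05 (adjusted p = 0.0372). That call was lost without any 1 of the 5 control arrays at E17.5 or of replicates 1, 6 and 7 at P0 (adjusted p 0.0505 to 0.0894). Pdk1, the kinase that holds pyruvate dehydrogenase inactive, changed by -0.13 ± 0.09 and did not pass. It read 8.29 in replicate 10 at E17.5 and 8.68 to 8.73 in the other 4, and without replicate 10 it was called lower (-0.21, adjusted p = 0.0246).

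Of the oxygen sensing genes, 1 fell and 3 did not pass. Egln3, a hydroxylase that is itself a HIF target, read 5.99, 6.60, 6.36, 6.53 and 6.39 at E17.5 and 5.96, 5.93, 6.13, 5.85 and 5.96 at P0, a fall of 0.41 ± 0.10 (adjusted p = 0.0105). Replicate 10 at E17.5 lay among the P0 lenses. Hif1a, the regulated subunit of HIF, changed by 0.10 ± 0.10, Vhl, which tags it for degradation, by -0.02 ± 0.05, and Egln1, the main hydroxylase, by 0.07 ± 0.04.

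The hypoxia-induced effectors did not move one way: 3 rose and 3 fell. Ndrg1, a differentiation and stress gene, read 11.42, 11.10, 11.37, 11.27 and 11.27 at E17.5 and 12.16, 12.23, 12.16, 12.03 and 12.06 at P0, a change of 0.84 ± 0.07 (adjusted p = 3.8e-05) without overlap. Its other 4 probe sets changed by 0.86 to 1.13. Bnip3, a mitochondrial protein of mitophagy, read 10.58, 10.54, 10.80, 10.65 and 10.66 at E17.5 and 11.16, 11.07, 11.02, 10.92 and 11.12 at P0, a change of 0.41 ± 0.06 (adjusted p = 0.000619). Bnip3 stood clear of its E17.5 values in every P0 array. The collagen prolyl hydroxylase subunits moved apart: P4ha2 rose by 0.55 ± 0.10 (adjusted p = 0.00183) and P4ha1 fell by 0.72 ± 0.13 (adjusted p = 0.0017), both without overlap, and P4ha2 minus P4ha1 was 1.27 higher at P0. P4ha2 read 8.26, 8.62, 8.74, 8.79 and 8.81 at E17.5 and 9.11, 9.13, 9.37, 9.19 and 9.16 at P0. P4ha1 read 10.17, 10.12, 10.54, 10.38 and 10.43 at E17.5 and 9.38, 9.62, 9.46, 9.52 and 10.08 at P0. Ankrd37, a small ankyrin repeat gene used as a reporter of HIF activity, read 5.74, 6.09, 6.51, 6.47 and 6.20 at E17.5 and 5.61, 5.31, 5.60, 5.21 and 5.25 at P0, a change of -0.81 ± 0.14 (adjusted p = 0.00161). Its P0 values lay close to the array medians, where the log2 scale may be compressed. The angiogenic factor Vegfa read 7.96, 7.93, 8.25, 8.28 and 8.26 at E17.5 and 7.65, 7.78, 7.93, 7.87 and 7.97 at P0, an overlapping fall of 0.30 ± 0.09 (adjusted p = 0.0241), and a second probe set changed by -0.02. The mean of both did not pass (-0.16, adjusted p = 0.134), and the call was lost without control replicate 12, 13 or 15 at E17.5 or 1 at P0 (adjusted p 0.0541 to 0.0594).

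Promoter sequences from RefSeq (GRCm38.p6) are shown for Ldha, Aldoc, Ankrd37 and P4ha1, the members with a promoter entry and the largest stage changes, for Bnip3, which differed with both stage and genotype, and for Pgk1, which changed by -0.02. Where a gene has several starts, the first one listed is shown. HIF binds the core ACGTG or GCGTG. Each line gives the 250 bases before the annotated start, 5' to 3' on the strand of the gene, with these cores on either strand in capitals. The stretches are chr7:46845554-46845803 (plus strand) for Ldha, chr10:59323046-59323295 (plus) for P4ha1, chr8:45999851-46000100 (minus) for Ankrd37, chr7:138909507-138909756 (minus) for Bnip3, chr11:78322823-78323072 (plus) for Aldoc and chrX:106186850-106187099 (plus) for Pgk1.
Ldha: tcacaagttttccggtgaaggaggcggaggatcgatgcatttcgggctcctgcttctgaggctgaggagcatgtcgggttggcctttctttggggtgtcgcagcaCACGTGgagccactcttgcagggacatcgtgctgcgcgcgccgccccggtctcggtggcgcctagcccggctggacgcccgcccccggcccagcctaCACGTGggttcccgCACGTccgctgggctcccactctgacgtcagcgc
P4ha1: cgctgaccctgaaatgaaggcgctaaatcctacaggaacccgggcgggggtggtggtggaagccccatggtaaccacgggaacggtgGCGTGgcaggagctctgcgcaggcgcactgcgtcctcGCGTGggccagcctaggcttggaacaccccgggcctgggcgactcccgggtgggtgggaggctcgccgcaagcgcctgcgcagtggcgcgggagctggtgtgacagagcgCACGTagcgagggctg
Ankrd37: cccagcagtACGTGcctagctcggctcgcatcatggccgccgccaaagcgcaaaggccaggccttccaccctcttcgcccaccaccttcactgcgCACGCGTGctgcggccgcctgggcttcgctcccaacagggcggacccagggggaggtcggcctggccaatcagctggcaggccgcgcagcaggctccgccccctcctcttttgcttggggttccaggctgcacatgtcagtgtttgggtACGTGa
Bnip3: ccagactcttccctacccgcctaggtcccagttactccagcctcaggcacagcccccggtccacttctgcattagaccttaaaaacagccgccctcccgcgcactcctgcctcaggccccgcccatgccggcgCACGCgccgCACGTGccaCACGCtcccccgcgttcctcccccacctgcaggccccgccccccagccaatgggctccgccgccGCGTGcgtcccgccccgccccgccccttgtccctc
Aldoc: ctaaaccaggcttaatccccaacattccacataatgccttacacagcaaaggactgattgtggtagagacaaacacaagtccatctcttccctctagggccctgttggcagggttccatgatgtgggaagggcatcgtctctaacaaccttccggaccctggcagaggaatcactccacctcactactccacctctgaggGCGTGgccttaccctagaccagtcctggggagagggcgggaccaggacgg
Pgk1: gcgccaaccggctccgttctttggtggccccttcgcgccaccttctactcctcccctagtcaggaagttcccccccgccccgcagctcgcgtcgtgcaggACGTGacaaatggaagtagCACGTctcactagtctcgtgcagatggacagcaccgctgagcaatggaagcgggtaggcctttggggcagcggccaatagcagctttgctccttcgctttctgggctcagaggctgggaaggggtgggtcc
Ldha, which fell, held 5 cores, all ACGTG, nearest 34 bases before the start. Bnip3, which rose, held 5, P4ha1 and Ankrd37, which fell, held 3 and 4, Aldoc, which rose, held 1, and Pgk1 held 2. The sequence CACGTG, an E-box that other factors bind, reads as ACGTG on both strands and counts as 2 cores: Ldha held it at 2 places and Bnip3 at 1. Over the whole 300-base windows, which run to 50 bases after the start, ACGTG or GCGTG on either strand occurred in 33 of 44 windows of the 30 members with an entry (75%) and in 43.8% of all 32851 windows. ACGTG alone occurred in 22 member windows (50%) and in 19.6% of all windows, and GCGTG in 24 (54.5%) and 32.4%. The E2F cores TTTCCCGC, TTTGGCGC, TTTGCCGC and TTTCGCGC on either strand occurred in none of the 44 windows and in 2.26% of all windows. A match is a description of the letters, and a window without a match shows only that these letters are not in it.

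At P0, knockout lenses had more of both lactate dehydrogenases and of the platelet-type and muscle-type phosphofructokinases than controls, and less Hk2, Pfkl, Pfkfb3, Hif1a, Egln1 and Bnip3. Of the 26 tested genes 6 were higher and 9 lower by the limma adjusted p, and 11 did not pass. The background was large: 20.2% of all tested genes were called higher and 19.4% lower, and 25.9% did not overlap between the genotypes, against 10 of the 26 genes. The median change was -0.16 over the 26 genes and -0.01 over all genes tested. With the retina marker mean as a covariate, 661 genes were called in place of 4700, and of the 15 members called Ldhb (0.55, adjusted p = 0.026), Hk2 (-0.62, 0.0272), Bnip3 (-0.93, 0.0272) and Pfkl (-0.64, 0.0478) kept their calls, and Ankrd37 passed as well (-0.99, 0.0283). The other 11 did not pass (adjusted p 0.0668 to 0.473). Among those 11, the changes of Ldha (0.77), Aldoa (-0.33), Egln1 (-0.39) and Tpi1 (0.31) were larger than without the covariate (0.64, -0.23, -0.34 and 0.29). That of Pfkp was 1.004 against 1.05, and those of Pfkfb3 (-0.36), Hif1a (-0.37), Vegfa (-0.24), Vhl (-0.19), Pfkm (0.26) and Bpgm (0.22) were smaller. The marker mean did not overlap between the genotypes at P0, so that a fit with both separates them with less precision. Of the tested pigment cell and macrophage genes, 66.7% and 44.4% were called higher at P0, and the part of these lists was not tested. Ldhb, Hk2, Bnip3 and Pfkl passed in all 19 alternative settings tried. Hk2 and Bnip3 had a single probe set each, so the setting with the mean of the probe sets could not change their values.

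The first steps of glucose use moved in both directions, with 3 genes higher, 3 lower and 2 not passing. Hk2, the inducible hexokinase that traps glucose in the cell, read 9.83, 10.04, 9.92, 9.99 and 9.80 in the 5 control lenses and 9.19, 9.25, 9.25, 9.44 and 9.35 in the 5 knockout lenses. Every knockout value lay below every control value, and Hk2 fell by 0.62 ± 0.07 (adjusted p = 0.000196), or 1.54-fold. Hk1, the constitutive hexokinase, changed by -0.16 ± 0.06 and did not pass (adjusted p = 0.0677), and its second probe set changed by 0.12.

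The 3 phosphofructokinases, which catalyse the committed step, differed from one another. Pfkl read 10.23, 10.15, 10.08, 10.13 and 10.30 in controls and 9.65, 9.77, 9.47, 10.05 and 9.65 in knockouts, a fall of 0.46 ± 0.10 (adjusted p = 0.00399). Pfkm read 7.38, 7.51, 7.20, 7.17 and 7.30 in controls and 7.76, 7.84, 7.63, 7.63 and 7.53 in knockouts, a rise of 0.37 ± 0.08 (adjusted p = 0.00516). Pfkp read 5.35, 5.27, 5.56, 5.30 and 5.55 in controls and 6.74, 6.79, 6.73, 6.18 and 5.82 in knockouts, a rise of 1.05 ± 0.18 (adjusted p = 0.00135), or 2.07-fold. Its control values lay close to the array medians (5.19 to 5.21), where the log2 scale may be compressed. None of the 3 overlapped between genotypes, and knockout replicate 22 was the lowest of its group for both Pfkm and Pfkp. Taken within each array, Pfkm minus Pfkl was higher by 0.83 and Pfkp minus Pfkl by 1.51 in the knockout, without overlap. The other 2 probe sets of Pfkl changed by -0.25 and -0.27 and those of Pfkp by 0.69 and 0.50. The retina marker mean moved with these values, and with it in the fit Pfkp (1.004, adjusted p = 0.0866) and Pfkm (0.26, adjusted p = 0.277) did not pass.

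Below the phosphofructokinase step, Aldoa fell by 0.23 ± 0.06 (adjusted p = 0.0122), from 11.19, 11.17, 11.26, 11.12 and 11.31 in controls to 10.94, 11.10, 10.94, 11.04 and 10.90 in knockouts, without overlap, and all 4 other Aldoa probe sets had negative changes (-0.12 to -0.25). Tpi1 rose by 0.29 ± 0.09 (adjusted p = 0.019), from 10.53, 10.63, 10.55, 10.50 and 10.93 in controls to 10.88, 11.03, 10.82, 10.98 and 10.90 in knockouts. Control replicate 8 lay among the knockout values, and the call was lost without control replicate 7 (adjusted p = 0.0512). Aldoc changed by -0.10 ± 0.07 and did not pass.

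**Figure D2:**
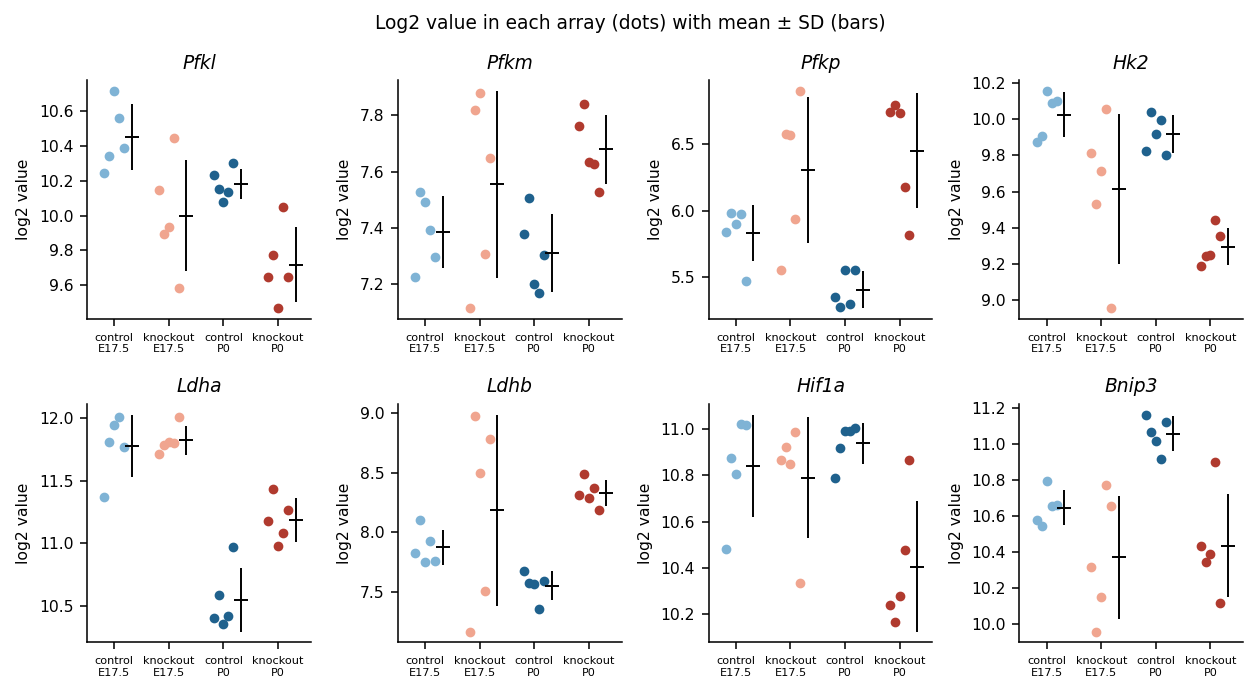
Log2 value of 8 genes in each array (dots, 5 per group, in order of replicate number) with mean and SD (bars), for control and knockout lenses at E17.5 and P0. At P0 the knockout arrays of Pfkl, Hk2 and Bnip3 lie below and those of Pfkm, Pfkp, Ldha and Ldhb above the controls, whereas Hif1a overlaps through 1 knockout array at 10.87.

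Both lactate dehydrogenases were higher in the knockout, and the other 3 tested genes from triose phosphate to lactate did not pass. Ldha read 10.41, 10.59, 10.36, 10.42 and 10.97 in controls and 11.18, 11.44, 10.98, 11.08 and 11.27 in knockouts, a change of 0.64 ± 0.12 (adjusted p = 0.0027), or 1.56-fold. The lowest knockout value (10.98) and the highest control value (10.97) were next to each other, and both groups lay below the lowest control value at E17.5 (11.37) but for knockout replicate 18 at 11.44. Ldhb read 7.68, 7.58, 7.57, 7.36 and 7.59 in controls and 8.32, 8.49, 8.29, 8.37 and 8.19 in knockouts. The Ldhb groups stood well apart, with a change of 0.77 ± 0.07 (adjusted p = 0.000114), or 1.71-fold, and its other 3 probe sets changed by 1.05, 1.03 and 1.47. Pgk1 changed by -0.03 ± 0.05, Pgam1 by -0.12 ± 0.06 (adjusted p = 0.103) and Pkm by -0.17 ± 0.07 (adjusted p = 0.0746). Pkm passed without knockout replicate 21 or 22 (-0.21 and -0.20, adjusted p = 0.0382 and 0.0440). The Gapdh control probe sets read 13.52 in controls and 13.43 in knockouts at the 3' end but 13.51 and 13.61 at the 5' end. This 5' minus 3' difference, a sign of RNA quality and labelling, was -0.05 to 0.06 in control and 0.15 to 0.19 in knockout lenses at P0, and -0.06 to -0.02 and 0.10 to 0.20 at E17.5. It separated the genotypes at both stages, and its part in the results was not tested. The same difference for the actin control probe sets overlapped between genotypes. It was -1.03 to -0.87 in control and -0.95 to -0.70 in knockout lenses at P0, and -1.01 to -0.86 and -1.01 to -0.71 at E17.5.

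Of the flow regulators, Pfkfb3 fell by 0.58 ± 0.11 (adjusted p = 0.00264), from 7.23, 7.36, 7.31, 7.37 and 7.29 in controls to 6.79, 6.29, 6.83, 6.73 and 7.02 in knockouts, without overlap. A dimmer Pfkfb3 probe set changed by 0.22, and the mean of both did not pass (-0.18, adjusted p = 0.0978). Bpgm read 8.63, 8.72, 8.64, 8.57 and 8.80 in controls and 8.74, 8.82, 9.01, 9.04 and 8.93 in knockouts. It was called higher (0.24 ± 0.07, adjusted p = 0.0241) with overlapping values, but its other 2 probe sets changed by -0.11 and -0.17, and the mean of the 3 gave -0.02 (adjusted p = 0.862). The call was also lost without control replicate 1, 6 or 7 or knockout replicate 19 (adjusted p 0.0501 to 0.0631). Pdk1 changed by 0.03 ± 0.08.

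Of the 4 oxygen sensing genes, 3 were lower and 1 did not pass, where 19.4% of all tested genes were called lower. Hif1a read 10.79, 10.92, 10.99, 10.99 and 11.004 in controls and 10.24, 10.17, 10.28, 10.48 and 10.87 in knockouts, a fall of 0.54 ± 0.12 (adjusted p = 0.00546). Knockout replicate 22 lay among the controls and the other 4 below them all, and the other 3 Hif1a probe sets had negative changes as well (-0.54, -0.29 and -0.57). With the retina marker mean in the fit, Hif1a (-0.37, adjusted p = 0.284), Egln1 (-0.39, 0.082) and Vhl (-0.19, 0.473) did not pass. Egln1 read 9.76, 9.70, 9.71, 9.71 and 9.61 in controls and 9.29, 9.19, 9.34, 9.48 and 9.48 in knockouts, a fall of 0.34 ± 0.07 (adjusted p = 0.00277) without overlap. A second Egln1 probe set changed by -0.03, and the mean of both did not pass (-0.19, adjusted p = 0.0692). Vhl read 7.47, 7.67, 7.70, 7.68 and 7.66 in controls and 7.28, 7.16, 7.29, 7.50 and 7.58 in knockouts, with knockout replicates 21 and 22 above the lowest control. It was called lower (-0.28 ± 0.09, adjusted p = 0.0246), but with another probe set at 0.22 and the mean of its probe sets at -0.03 (adjusted p = 0.856), and the call was lost without any 1 of control replicates 5, 6 and 7 or knockout replicates 17, 18 and 19 (adjusted p 0.052 to 0.0575). Egln3 changed by 0.10 ± 0.09, and by 0.19 without knockout replicate 21 (adjusted p = 0.0423).

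Of the 6 tested hypoxia-induced effectors, 2 fell and 4 did not pass. Bnip3 read 11.16, 11.07, 11.02, 10.92 and 11.12 in controls and 10.43, 10.34, 10.39, 10.90 and 10.12 in knockouts, a fall of 0.62 ± 0.12 (adjusted p = 0.00277). Knockout replicate 21, at 10.90, came next to the lowest control at 10.92, and the other 4 knockout lenses lay below every control lens of either stage (10.54 at the lowest). Vegfa fell by 0.34 ± 0.09 (adjusted p = 0.0129), from 7.65, 7.78, 7.93, 7.87 and 7.97 in controls to 7.51, 7.23, 7.50, 7.69 and 7.57 in knockouts, and knockout replicate 21 lay above the lowest control. Its second probe set changed by 0.25 and the mean of both by -0.04 (adjusted p = 0.752). In the fit over all 20 arrays its adjusted p was 0.0515. Ndrg1 (-0.17, adjusted p = 0.0559), Ankrd37 (-0.31), P4ha1 (-0.09) and P4ha2 (-0.20) did not pass. In some settings Ndrg1, P4ha1 and P4ha2 had positive changes (up to 0.12, 0.19 and 0.15). The second P4ha1 probe set changed by 0.47, and the other Ndrg1 probe sets by -0.05, 0.14, 0.44 and 0.23. P4ha2 was 8.13 in knockout replicate 21 and 9.05 to 9.32 in the other 4 knockouts. Adm was dim throughout, at 4.53 to 4.62 and 4.53 to 4.85.

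**Figure D3:**
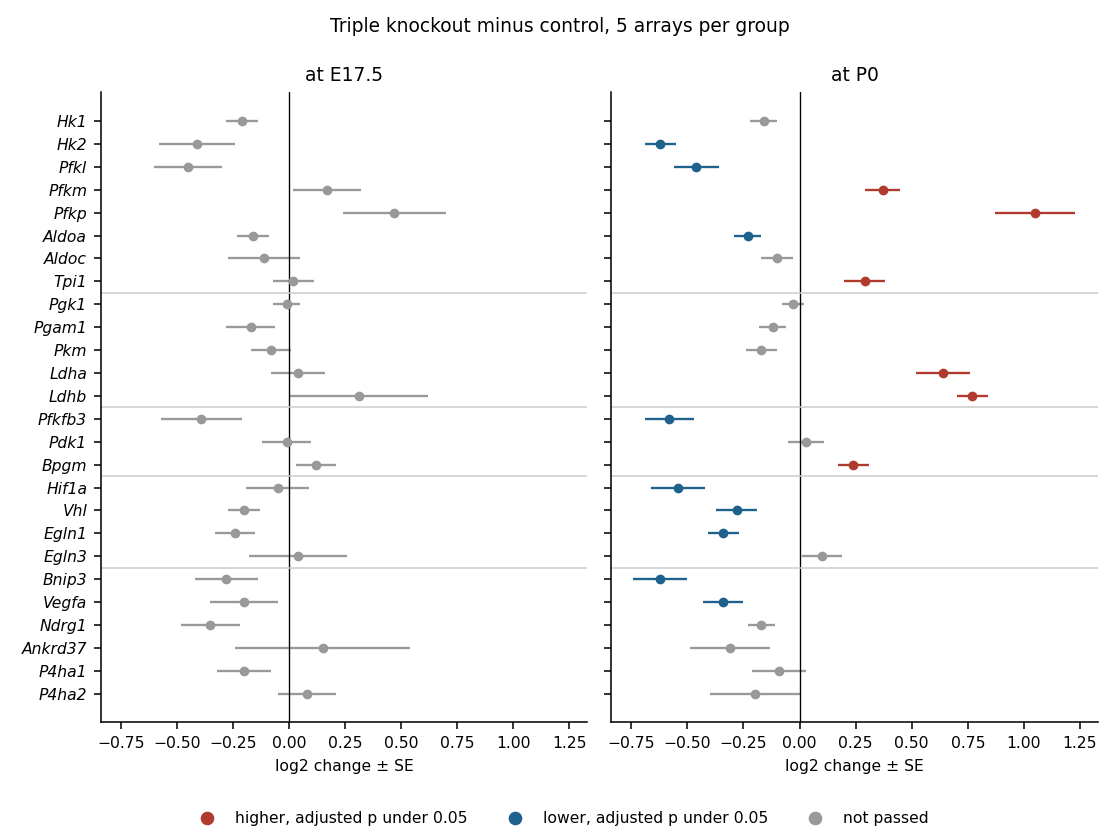
Log2 change of knockout minus control lenses with its SE for the 26 tested genes at E17.5 (left) and at P0 (right), 5 arrays per group. Colour marks an adjusted p under 0.05: no gene is coloured at E17.5, and at P0 6 are higher and 9 lower.

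At E17.5, none of the 26 genes passed in the knockout comparison. By the adjusted p, 1.59% of all genes tested were called higher and 1.31% lower. The unadjusted limma p was under 0.05 for 7 of the 26, all with negative changes. It was under 0.05 for 3041 of the 11859 genes tested in either direction, a like share. Of the 7, Hk1, Vhl and Ndrg1 changed by 0.03, 0.04 and 0.01 with the mean of their probe sets. The median change was -0.10 over the 26 genes and -0.03 over all genes tested. The smallest adjusted p was that of Pfkl (-0.45 ± 0.15, adjusted p = 0.106). Of the 26 genes, Hk1 and Egln1 did not overlap between genotypes, against 9.95% of all genes tested. Their second probe sets did overlap, with changes of 0.27 and -0.01. Hk1 read 7.74, 7.86, 7.83, 7.80 and 7.77 in controls and 7.56, 7.74, 7.73, 7.50 and 7.45 in knockouts, where the nearest values are equal at the decimals printed, a change of -0.21 ± 0.07 (adjusted p = 0.12). Egln1 read 9.64, 9.59, 9.66, 9.62 and 9.66 in controls and 9.43, 9.42, 9.48, 9.54 and 9.08 in knockouts, a change of -0.24 ± 0.09 (adjusted p = 0.119). Ldha, at 11.37 to 12.01 in controls and 11.71 to 12.01 in knockouts, changed by 0.04 ± 0.12. The Gapdh 5' minus 3' difference separated the genotypes here too, and its part was not tested.

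The knockout lenses at E17.5 differed among themselves in Ldhb and Pfkp, which were higher at P0. Ldhb read 7.17, 8.97, 8.50, 7.51 and 8.78 in knockout replicates 24 to 28 and 7.76 to 8.10 in controls. Replicates 24 and 27 lay below all controls and the other 3 above them all. Pfkp read 5.55, 6.58, 6.57, 5.94 and 6.90 in the same order against 5.47 to 5.98 in controls, so that the same 3 lenses were high. The retina markers had median deviations from the controls of -0.51, 1.79, 1.52, 0.00 and 0.66 in this order, so that the lenses high for Ldhb and Pfkp were also those with higher retina markers. With replicates 24 and 27 left out together, chosen because they resemble the controls over all genes, 3 members were called higher (Ldhb, Pfkp and Pfkm) and 6 lower (Hk2, Pfkl, Pfkfb3, Egln1, Ndrg1 and Vegfa), among 2953 genes in place of 343. Leaving out the knockout arrays most like the controls widens the difference between genotypes by construction, so these calls support nothing. The number of genes called at E17.5 also moved when single arrays were left out, from 49 without control replicate 15 to 1129 without knockout replicate 27, and Pfkl passed without the latter (-0.56, adjusted p = 0.0286). In a fit over all 20 arrays, 4 members were called lower at E17.5 (Pfkl, Ndrg1, Egln1 and Hk1), among 1541 genes called either way. Other Ndrg1 probe sets changed by -0.20, 0.03, 0.39 and 0.17, and the mean of the Hk1 probe sets by 0.03.

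Knockout replicate 28 held several extreme values. Hk2 was 8.96 there and 9.53 to 10.06 in the other 4 knockouts, Hif1a 10.33 against 10.85 to 10.99, Pgam1 11 against 11.49 to 11.60 and Pkm 11.43 against 11.81 to 11.87. Ankrd37 (7.86), Egln3 (7.18) and Adm (5.47) were highest in it of all 20 arrays. Its endothelium and macrophage markers had median deviations of 1.32 and 1.58, against -0.76 to -0.21 and -0.68 to 0.10 in the other 4 knockouts, and its lens markers -0.24. The part of those cells in these values was not tested.

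**Figure D4:**
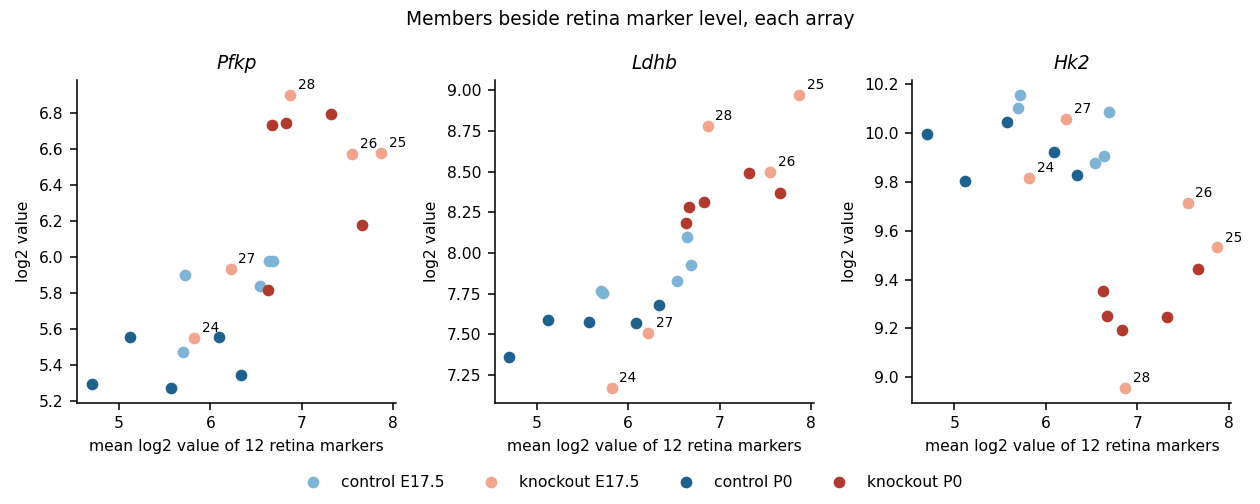
Log2 value of Pfkp, Ldhb and Hk2 (vertical axes) beside the mean log2 value of 12 retina markers (horizontal axis) in each of the 20 arrays, coloured by group, with the knockout arrays at E17.5 numbered by replicate. Replicates 24 and 27 lie within the E17.5 control range for Pfkp but below it for Ldhb (7.17 and 7.51), and replicates 25, 26 and 28 above it for Pfkp (6.57 to 6.90) and Ldhb (8.50 to 8.97).

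From E17.5 to P0 in knockout lenses, 2 of the 26 genes rose and 3 fell, against 5.8% of all tested genes called higher and 8.77% called lower. Values did not overlap between stages for 5 of the 26 genes and for 11.8% of all genes tested. The 5 called were also called in the same direction in control lenses. Aldoc rose by 0.87 ± 0.16 (adjusted p = 0.0109), where controls had 0.86. It read 11.25, 10.23, 10.67, 10.72 and 10.56 at E17.5 and 11.64, 11.65, 11.61, 11.38 and 11.48 at P0, so that knockout replicate 24 at E17.5 came nearest to the P0 values. Ndrg1 rose by 1.02 ± 0.13 (adjusted p = 0.00355), where controls had 0.84. Ndrg1 read 11.37, 10.64, 10.95, 11.05 and 10.68 at E17.5 and 12.001, 11.91, 12.05, 12.02 and 11.82 at P0, with a clear gap. Ldha fell by 0.63 ± 0.10 (adjusted p = 0.00654), from 11.71, 11.78, 11.81, 11.80 and 12.01 to 11.18, 11.44, 10.98, 11.08 and 11.27. Its fall in controls was 1.23. P4ha1 fell by 0.61 ± 0.11 (adjusted p = 0.0116), against 0.72 in controls, from 10.20, 9.91, 9.91, 10.43 and 10.17 to 9.61, 9.52, 9.60, 9.57 and 9.29. Tpi1 fell by 0.30 ± 0.08 (adjusted p = 0.0371), against 0.57 in controls, from 11.17, 11.27, 11.05, 11.22 and 11.39 to 10.88, 11.03, 10.82, 10.98 and 10.90. All 5 genes stood apart between the stages. The Tpi1 call was lost without knockout replicate 25 or 27 at E17.5 or 17, 18, 19 or 21 at P0 (adjusted p 0.0544 to 0.101), and under quantile normalization (-0.24, 0.0735). Without replicate 28 at E17.5, 9 members were called lower, with Ankrd37, Hk2, Hif1a, Pgam1, Pkm and Aldoa added. The number of genes called over all also moved when single arrays were left out. The added calls are therefore not read as a result about the members. Ankrd37 passed without replicate 25 at E17.5 too (-1.56, adjusted p = 0.0366), Hif1a without replicate 22 at P0 (-0.50, 0.0321) and P4ha2 without replicate 21 at P0 (0.48, 0.0383). In the fit over all 20 arrays 9 members were called lower as well, among 3940 of the 11859 genes called either way.

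Of the 17 members called with stage in control lenses, 15 had a change of the same sign in knockout lenses. In knockouts 5 of the 17 passed too, none in the opposite direction. The median gene varied more in knockouts, with an SD of 0.204 at E17.5 and 0.15 at P0 against 0.0963 and 0.103 in controls. Bnip3, which rose by 0.41 in controls, changed by 0.07 ± 0.18 in knockouts. P4ha2, which rose by 0.55 in controls, changed by 0.26 ± 0.21. The difference between stages of the knockout effect was tested directly: no member passed, and over all genes tested 0.0337% were called higher and 0.143% lower. By the unadjusted limma p 3 of the 26 members were under 0.05, as were 1866 of the 11859 genes tested, a larger share. The 3 members were Ldha (0.60 ± 0.18, adjusted p = 0.136), Tpi1 (0.27 ± 0.12, adjusted p = 0.287) and Hif1a (-0.48 ± 0.19, adjusted p = 0.237). The stage changes of Ldha in control and knockout lenses, different as they read, were thus not shown to differ.

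**Figure D5:**
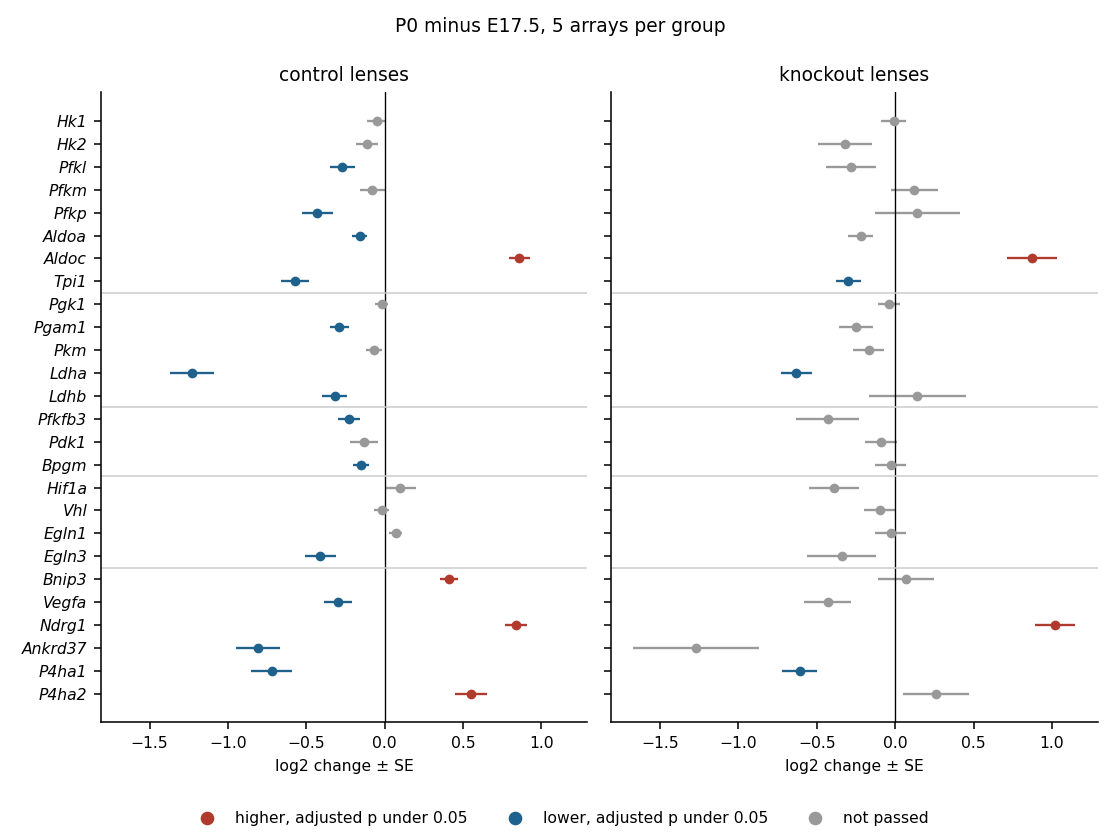
Log2 change of P0 minus E17.5 with its SE for the 26 tested genes in control lenses (left) and in knockout lenses (right), 5 arrays per group. Colour marks an adjusted p under 0.05: 4 higher and 13 lower in controls, 2 higher and 3 lower in knockouts, with Ldha at -1.23 and -0.63.

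Further genes of the same pathways were read from lists that do not overlap the members. Of 24 tested HIF targets outside the set, 3 rose and 14 fell from E17.5 to P0 in controls, or 12.5% and 58.3% against 12.5% and 24.9% of all genes. Hmox1 (haem oxygenase) rose by 0.96 ± 0.10 (adjusted p = 9.52e-05), whereas Slc16a3, which exports lactate, fell by 1.12 ± 0.13 (adjusted p = 0.00019). Ddit4, an inhibitor of mTOR signalling, fell by 0.97, the adenylate kinase Ak4 by 0.90 and Fam162a, a mitochondrial protein, by 0.74. In knockout lenses 2 of the 24 rose and 9 fell with stage, or 8.33% and 37.5% against 5.8% and 8.77% of all genes. Slc16a3 fell by 0.89 and Ak4 by 0.86. At P0, 5 of the 24 were higher in knockouts and 7 lower, or 20.8% and 29.2% against 20.2% and 19.4% of all genes. Slc2a1, the main glucose transporter of the lens epithelium, read 11.07 ± 0.24 in knockouts and 11.73 ± 0.10 in controls (SD, n = 5 and 5), a fall of 0.66 ± 0.11 (adjusted p = 0.00103). Kdm5b (a histone demethylase) and Ero1a (an oxidase of the endoplasmic reticulum) fell by 0.32 and 0.49, and the transcripts higher in knockouts with the smallest adjusted p were Fam162a (0.38), Higd1a (0.45) and Hmox1 (0.48). At E17.5 1 of the 24, Hmox1, was higher, or 4.17% against 1.59% of all genes.

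Of 15 HIF subunits and partners, 3 were higher and 4 lower in knockouts at P0, or 20% and 26.7%, near the shares over all genes. Eloc and Elob, the elongins of the Vhl ubiquitin ligase, and Arnt2 (0.40 ± 0.09), a dimer partner of HIF, were the higher ones, and the coactivators Ep300 (-0.42 ± 0.06, adjusted p = 0.000752) and Crebbp (-0.23), the ligase component Rbx1 (-0.31) and the HIF subunit Epas1 (-0.79 ± 0.28, adjusted p = 0.0438) the lower. With stage in controls 2 rose and 2 fell (13.3% each), against 12.5% and 24.9% of all genes. Of 14 enzymes of the pentose phosphate, glycogen and sorbitol routes, 6 (42.9%) fell and none rose with stage in controls. At P0 the muscle glycogen phosphorylase Pygm was higher in knockouts (0.37), or 7.14% of the list against 20.2% of all genes. The pentose phosphate enzymes Tkt (-0.42), Pgd (-0.22) and Taldo1 (-0.19) were lower, or 21.4% against 19.4%. Of 11 genes of pyruvate entry into mitochondria, 3 (27.3%) were higher in knockouts at P0 and none lower, against 20.2% and 19.4% of all genes. The 3 were Pdk3, a kinase that inhibits pyruvate dehydrogenase (0.49 ± 0.08), Mpc1, a subunit of the pyruvate carrier (0.29), and Dld, a dehydrogenase subunit (0.25). In controls 2 of the 11 (18.2%) rose and 5 (45.5%) fell with stage, Pdk3 by 0.32 among the latter. Of 6 tested other isoforms of glycolytic enzymes, Hkdc1, a hexokinase domain protein, was the only 1 called at P0 (0.83 ± 0.24, adjusted p = 0.02). That was 16.7% of the list called higher, against 20.2% of all genes.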

How the data were processed

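Total RNA from both lenses of each mouse was labelled and hybridised to Affymetrix arrays, 1 per mouse, per the labels' protocols. The values as deposited by the authors are 1 normalized log2 value per probe set and array, log2 being inferred from their range of 1.72 to 15.01. The normalization and summary method is not given in the sources used, and array medians lay between 5.05 and 5.25. Of 45101 probe sets, the 34945 annotated to a single gene were kept. Left out were 64 control probe sets, 932 annotated to several genes and those with no gene named. The probe set brightest on average over the 20 arrays stood for its gene, which was tested if that probe set was above the array median in at least 5 arrays. The annotation table's symbols were updated through gene identifiers.

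Each comparison was fitted in limma 3.58.1 (R 4.3.3) on its own 2 groups of 5 arrays, because the groups differ in spread, and the difference between stages on all 4 groups, with Benjamini-Hochberg adjustment over 11859 genes and a threshold of 0.05. The script was tested on simulated data. Replicate numbers do not repeat between groups, so nothing pairs the arrays. Array number limits the precision. Members and gene lists were chosen with earlier results of these data known. All members were named, with every array's value where they passed or did not overlap, and of each further list up to 3 genes each way by adjusted p at P0. Genes named beyond this rule, such as Epas1 and the stage changes of Slc16a3, Ddit4 and Ak4, were chosen after their values were seen. Alternatives changed normalization, filter, probe set rule, fit and arrays.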

Additional observations from a re-analysis of the deposited data

Results flagged for a closer look

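In 112 groups of 5 arrays (28 genes in 4 groups), 11 had an array far from the other 4, where chance gives about 1 in 20 groups. Of these, 4 were knockout replicate 28 at E17.5, always as the lowest: Hif1a at 10.33 (others 10.85 to 10.99), Egln1 at 9.08 (9.42 to 9.54), Pgam1 at 11 (11.49 to 11.60) and Pkm at 11.43 (11.81 to 11.87). In control lenses at E17.5, Bpgm was 8.89 in replicate 12 (others 8.78 to 8.81), Pdk1 8.29 in replicate 10 (8.68 to 8.73) and Pfkp 5.47 in replicate 15 (5.84 to 5.98). In knockout lenses at P0, P4ha1 was 9.29 in replicate 22 (others 9.52 to 9.61) and P4ha2 8.13 in replicate 21 (9.05 to 9.32). In control lenses at P0, Vhl was 7.47 in replicate 1 (others 7.66 to 7.70) and Pgam1 11.45 in replicate 8 (11.22 to 11.29).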

How the results depend on the processing

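Of the members called, 4 of 15 at P0 (Bnip3, Hk2, Ldhb and Pfkl), 8 of 17 with stage in controls (Aldoc, Bnip3, Ldha, Ndrg1, P4ha1, P4ha2, Pgam1 and Tpi1) and 4 of 5 with stage in knockouts (Aldoc, Ldha, Ndrg1 and P4ha1) passed in every setting tried. Among these, Bnip3, Hk2, Ldha, P4ha2 and Pgam1 had a single probe set each, so the mean of the probe sets could not change their values. With the retina marker mean as a covariate, members called at P0 were 1 higher and 4 lower. Genes called in that fit were 661 at P0, 91 at E17.5 and 1 for the difference between stages. With knockout replicates 24 and 27 left out, members called at E17.5 were 3 higher and 6 lower, and genes called were 2953 at E17.5 and 45 for the difference. In the fit over all 20 arrays, members called lower were 4 at E17.5, 4 with stage in controls and 9 with stage in knockouts, and genes called were 1541, 2046 and 3940. Quantile normalization gave 1 lower member and 580 genes at E17.5, and centring on the array median 197 genes. Without a filter, or with the stricter one, 2644 and 884 genes were called with stage in knockouts. Array weights gave 0 genes for the difference. Among the called members, 1 changed sign: Bpgm at P0 with the mean of its probe sets (-0.02). Of the members not called, 18 of 26 at E17.5, 5 of 11 at P0, 3 of 9 with stage in controls, 8 of 21 with stage in knockouts and 12 of 26 for the difference changed sign in at least 1 setting. Ldhb with stage in knockouts went from 0.14 to -0.42 (adjusted p = 0.0447) without replicates 24 and 27. The causes of these changes were not tested.

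Leaving out single arrays gave 0 to 1 members called lower at E17.5 and 2 to 9 with stage in knockouts. Genes called ranged from 49 to 1129 at E17.5, from 440 to 2716 with stage in knockouts and from 0 to 321 for the difference. The log2 scale may be compressed for dim probe sets, such as Pfkp in controls, Ankrd37, Eno2 and Adm, which was not tested.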
